A study of Mus musculus with 12 samples.

Results

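HL-1 cells in which Wdr62 had been targeted with a CRISPR guide (KD) were compared with HL-1 cells that carried the empty vectors (CON), over all genes whose level could be tested. The 4 KD and 4 CON libraries are 8 of the 12 in the series. Control cells had been infected with lentiCRISPRv2 and pCDH vector viruses and have the genotype label WT. KD cells had been infected with a virus for a Wdr62 sgRNA and have the genotype label WDR62-. The treatment label of KD 1 to 4 names Cas9, Cas10, Cas11 and Cas12 in turn, the pCDH virus is stated for CON and not for KD, and no label says whether the KD cells were 1 clone or a mixture. All cells grew in DMEM with 10% foetal bovine serum. The other 4 libraries were KD cells given a pCDH-WDR62-WT-flag virus (RE). They enter below through the shared estimate of the spread and the mean level that decided which genes were tested. They also enter the gene mean used for long transcripts, the length correction and the alternative scalings described below. Of the 23184 symbols in the deposited table, the 11774 with a mean of at least 1 TPM (transcripts per 1000000) over the 12 libraries were tested.

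WDR62 is a scaffold protein of the centrosome and the mitotic spindle poles that also binds kinases of the JNK pathway, and the human gene is mutated in a form of microcephaly. Cells that secrete much protein fold it in the endoplasmic reticulum (ER) with dedicated chaperones, and a shortage of folding capacity is answered by the factors ATF6 and XBP1, which act on those chaperone genes, and by ATF4, which acts on genes for amino acid uptake and synthesis. Many secreted defence proteins belong to the acute phase response, in which C/EBP, STAT3 and NF-kB factors act downstream of cytokines such as interleukin 6.

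HL-1 cells descend from a mouse atrial tumour and are labelled as a cardiac muscle line. Of 18 cardiac muscle markers, 6 were tested; the atrial myosin light chain Myl7, the cardiac actin Actc1, the regulator Tbx5 and Sln were listed at 0 in all 8 libraries, and 11 of the 18 stayed below 1 TPM in all 8. The troponin Tnnt2 had 14.4 to 26.7 TPM in CON and 12.9 to 17.4 TPM in KD, and the cardiac factor Gata4 4.82 to 10.97 and 6.10 to 7.93 TPM; the groups overlapped in both genes. The cardiac factor Nkx2-5 was the single member to pass the test defined below and was higher in KD, with 4.70, 4.44, 3.60 and 8.50 TPM in CON 1 to 4 and 14.8, 9.79, 13.01 and 10.8 TPM in KD 1 to 4 (log2 difference 1.10 ± 0.27, adjusted p = 0.0229, limma). Leaving out any 1 of 5 libraries, median-of-ratios scaling or quantile normalization ended that call. The atrial myosin light chain gene Myl4 had 1.31 to 3.51 TPM in CON and 2.97 to 6.14 TPM in KD and did not pass. Atp2a2, for a calcium pump that many cell types hold, was the most abundant of the list, with 67.0 to 291 TPM in CON and 146 to 350.0 TPM in KD. CON cells also held transcripts of the skeletal muscle regulator Myod1 and of the placental hormone gene Prl2c2, described below.

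CON 4 stood apart from the other control libraries. Over 2341 long-transcript genes (4308 bases or more), its median deviation from the gene mean over all 12 libraries was -0.82 on the log2(TPM + 1) scale. The value was 0.46 to 0.68 in CON 1 to 3 and -0.20 to 0.55 in the KD libraries. The table holds no read counts, so depth is unknown and no counting interval can be given. Control libraries are numbered here as their deposited columns are. Since no label says that libraries of a group came from separate cultures, each p-value measures only the spread between these libraries, which may be technical.

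Short stretches of promoter are shown first, because many members of the gene groups described below hold the same elements there. RefSeq promoters (250 bases before to 50 after the gene start, GRCm38.p6) were found for 8956 tested genes. Each line runs 5′ to 3′ along the gene's strand, capitals mark 1 match of the pattern, read on either strand, and a bound factor is named as background. The first set holds TTGCNNAA, a C/EBP element, in genes of the acute phase list that were higher in KD.
Lcn2 (chr2:32387926-32387977, minus strand): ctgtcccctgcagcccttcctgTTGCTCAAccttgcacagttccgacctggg
Saa3 (chr7:46715746-46715797, minus strand): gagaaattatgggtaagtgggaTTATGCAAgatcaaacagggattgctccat
Saa2 (chr7:46751628-46751679, plus strand): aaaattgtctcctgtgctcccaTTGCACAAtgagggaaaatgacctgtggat
Slpi (chr2:164356719-164356757, minus strand): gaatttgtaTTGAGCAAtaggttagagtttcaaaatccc
Itih2 (chr2:10130687-10130738, minus strand): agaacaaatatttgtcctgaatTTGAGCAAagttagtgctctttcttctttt
The second set holds CCAAT, 9 bases, then CCACG, the ER stress element read by ATF6 with the CCAAT factor NF-Y, in genes of the ER that were higher in KD.
Hspa5 (chr2:34772003-34772065, plus strand): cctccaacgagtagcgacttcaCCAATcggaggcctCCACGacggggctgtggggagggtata
Hsp90b1 (chr10:86705616-86705678, minus strand): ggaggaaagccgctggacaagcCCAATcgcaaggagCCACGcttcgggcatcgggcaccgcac
Pdia6 (chr12:17266469-17266531, plus strand): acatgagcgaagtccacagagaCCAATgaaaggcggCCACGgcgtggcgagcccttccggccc
Creld2 (chr15:88819498-88819560, plus strand): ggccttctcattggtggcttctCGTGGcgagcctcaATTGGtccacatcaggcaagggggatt
Calr (chr8:84847053-84847115, minus strand): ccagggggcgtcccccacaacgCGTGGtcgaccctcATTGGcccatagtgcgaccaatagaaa
Syvn1 (chr19:6046510-6046572, plus strand): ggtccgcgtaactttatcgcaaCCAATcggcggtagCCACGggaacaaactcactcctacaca
The third set holds TGATGNAA, the amino acid response element read by ATF4 with a C/EBP partner, in genes that were lower in KD.
Vldlr (chr19:27216798-27216849, plus strand): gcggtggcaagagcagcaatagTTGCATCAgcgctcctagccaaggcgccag
Slc7a11 (chr3:50443650-50443701, minus strand): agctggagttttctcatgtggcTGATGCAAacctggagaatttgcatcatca
Asns (chr6:7693203-7693254, minus strand): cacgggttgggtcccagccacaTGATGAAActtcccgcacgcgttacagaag
Nupr1 (chr7:126625551-126625602, minus strand): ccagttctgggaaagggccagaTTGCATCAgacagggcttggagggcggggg
The patterns were searched one at a time on both strands and can share bases with each other. Hsp90b1 and Slc7a11 hold a second match each. A match is a description of these letters, not a site or a cause.

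Wdr62 itself (ENSMUSG00000037020.16, chr7:30240138-30280419, minus strand) checks the labels. Its level was 7.45, 6.61, 6.50 and 3.38 TPM in CON 1 to 4 and 1.40, 0.944, 1.37 and 0.881 TPM in KD 1 to 4. The KD values all lay below the CON values, and CON 4 was the lowest control. The difference was -1.67 ± 0.25, adjusted p = 0.000921, and an exact permutation test of 4 against 4, two-sided, gave p = 0.0286, the smallest that this design allows. The sources used here do not give the position of the guide, and a transcript with a small deletion can still be counted, so the level bears on the labels only in part.

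A gene is called here when its limma test, adjusted over all 11774 genes with the Benjamini-Hochberg method, gave an adjusted p below 0.05. Every difference below is KD minus CON on the log2(TPM + 1) scale with its standard error (SE), which understates the change of genes near 0. Of the tested genes, 777 (6.6%) were called higher in KD and 425 (3.61%) lower, 10.2% in all. The 4 KD and 4 CON values did not overlap in 1404 genes that were higher in KD (11.9%) and in 826 that were lower (7.02%). Of the calls, 763 higher and 387 lower also had no overlap. A further 641 higher and 439 lower genes had no overlap but missed the threshold; their median absolute difference was 0.49 and 0.47, against 1.11 and 1.08 among the called genes. In turn 14 higher and 38 lower genes were called although their groups overlapped. The amino acid transporter gene Slc7a5 is an example, with 188, 193, 175 and 53.1 TPM in CON 1 to 4 and 33.9, 55.7, 24.9 and 35.5 TPM in KD 1 to 4, where CON 4 lay below KD 2. In bulk RNA, fewer cells that use a gene and less RNA of it per cell cannot be told apart.

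**Figure D1:**
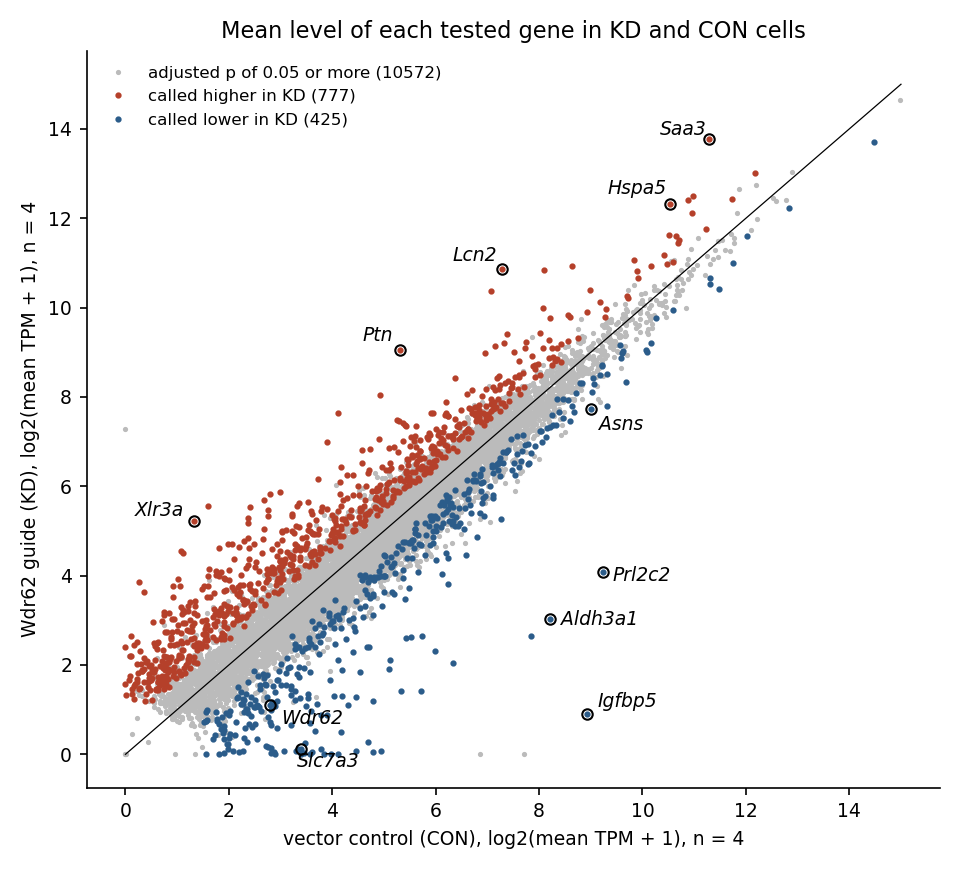
Each point is 1 of the 11774 tested genes, placed by its mean level in the 4 CON libraries (horizontal axis) and the 4 KD libraries (vertical axis), both as log2(mean TPM + 1); red points were called higher and blue points lower in KD, and the line marks equal levels. Igfbp5, Aldh3a1 and Prl2c2 lie farthest below the line, and Lcn2, Ptn and Xlr3a farthest above it among the labelled genes.

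The balance of the calls depended on CON 4. Of all calls, 64.6% were higher in KD. Without CON 4 the fit called 1116 genes higher and 1296 lower, 46.3% higher, and the median difference of all tested genes moved from -0.01 to -0.16. Without CON 4, RE 1 and RE 3, the libraries with the lowest median deviation of long-transcript genes, the counts were 1676 and 2960, 36.2% higher. A correction of each library for transcript length, with all libraries kept, gave 1439 and 1180, 54.9% higher. Of the 1202 calls, 1172 were kept in the same direction without CON 4, and 457 higher and 220 lower genes were called in all 8 fits that left out 1 CON or KD library.

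Genes called higher held 6.41% to 8.10% of the TPM in the CON libraries and 13.8% to 16.1% in KD. Genes called lower held 8.19% to 9.19% in CON and 4.19% to 5.91% in KD. The share of genes called higher was greatest below 5 TPM (12.2%) and at 100 TPM and above (9.15%), with 5.83% and 4.35% between. Among called genes, the mean rose by the most TPM in Saa3, Hsp90b1, Spp1, Hspa5 and Slpi, all for secreted or ER proteins, and fell by the most in Lgals1, Rpl8, S100a10 and Anxa2. The calls of Lgals1, Rpl8 and Anxa2 were lost without 3 to 5 of the single libraries, CON 3, KD 1 and KD 2 among them.

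Some genes were present in 1 group and near 0 in the other. A level of 5 TPM or more in every CON library and below 1 in every KD library was found in 16 genes, and the opposite in 5. Among the 16, Mal, which encodes a proteolipid of membrane sorting, had 17.3, 14.6, 12.8 and 8.92 TPM in CON 1 to 4 and was listed at 0 in all KD libraries. Ces2g, for a carboxylesterase, had 8.41, 10.4, 12.1 and 7.03 TPM in CON. Parm1 had 16.7, 19.9, 16.4 and 6.06 TPM and Sprr2h, for a small proline-rich protein, 6.83, 6.88, 8.004 and 21.6 TPM. These 3 were listed at 0 in every KD library too. Foxa2, a forkhead factor of endoderm, had 12.3, 9.28, 12.2 and 5.74 TPM in CON and was listed at 0 in 3 KD libraries and at 0.0673 TPM in KD 1. Other members were Chrnd, Cldn34b1, Cyp4f40, Igfbp2, Kctd15, Scara5, Slc7a3, Sulf1, Vldlr and Wnt4, with adjusted p between 1.22e-08 and 0.000144. The 5 genes that appeared in KD were H2-DMb1 and H2-DMb2 of antigen loading, the muscle attachment gene Nrap, the lipid kinase gene Pik3c2b and the adhesion receptor gene Adgrg3. Nrap is a heart and skeletal muscle gene, and its level was 0.724, 0.596, 0.701 and 0.654 TPM in CON 1 to 4 and 7.88, 9.36, 5.91 and 7.64 TPM in KD 1 to 4.

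**Figure D2:**
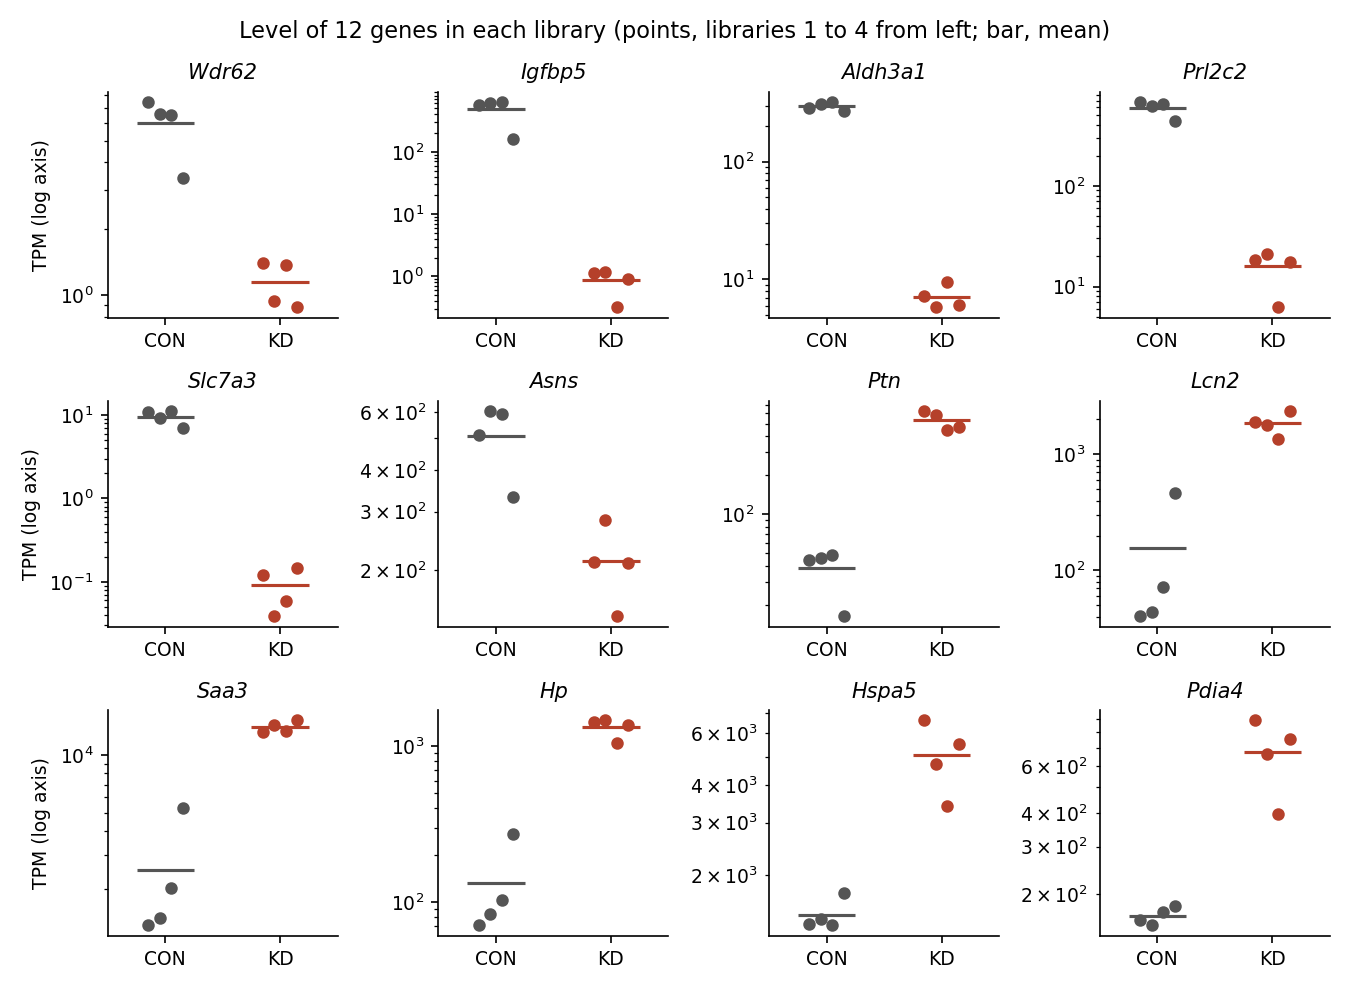
Each panel shows 1 gene, with a point for each library (CON 1 to 4 in grey and KD 1 to 4 in red, from left to right) and a bar for the group mean, in TPM on a log axis whose range differs between panels. The groups do not overlap in any of the 12 genes, and CON 4 is the control nearest to KD in each of them except Ptn.

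Secreted defence proteins were higher in KD. Of 17 tested acute phase and antimicrobial genes, 13 were called higher and none lower, their median difference was 2.14 against -0.01 for all tested genes, and leaving out any 1 library left 10 to 14 calls. All 17 differences were above 0. Lcn2 (ENSMUSG00000026822.14, chr2:32384633-32388252, minus strand), for the siderophore-binding lipocalin 2, had 40.2, 43.8, 72.5 and 464 TPM in CON 1 to 4 and 1900.1, 1776, 1365 and 2354 TPM in KD 1 to 4. The KD libraries were all above CON, and CON 4 was far above the other controls. The difference was 4.35 ± 0.73, adjusted p = 0.00235. Saa3, for a serum amyloid A protein, reached the highest level of the list, with 1292, 1409.8, 2035 and 5311 TPM in CON 1 to 4 and 13195, 14334, 13360.0 and 15146 TPM in KD 1 to 4, again without overlap (2.73 ± 0.50, adjusted p = 0.00417). Hp, for the haemoglobin scavenger haptoglobin, had 71.1, 83.7, 104 and 273 TPM in CON 1 to 4 and 1436, 1465, 1051 and 1373 TPM in KD 1 to 4 (3.52 ± 0.51, adjusted p = 0.000791). Camp, for the antimicrobial peptide cathelicidin, Orm1, for the plasma carrier orosomucoid, and Slpi, for an inhibitor of leukocyte elastase, showed the same separation. Their mean levels went from 16.3 ± 9.66 to 199 ± 52.5 TPM (SD, n = 4), from 5.78 ± 4.23 to 43.3 ± 5.73 TPM and from 1874 ± 1261 to 5438 ± 1095 TPM. The Slpi call was lost under median-of-ratios scaling. The Saa1 call was lost without any 1 of 7 of the 8 libraries and the Saa4 call without any 1 of 6, and reads of the near-identical Saa1 and Saa2 may have been split between them.

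Lcn2 and Camp are also granule genes of neutrophils, and Lyz2, also called higher, is a macrophage gene. Of 10 neutrophil markers 8 stayed below 1 TPM in all 8 libraries, with Csf3r, Ngp, Retnlg and S100a9 listed at 0; the summed level of the list was 10.3 to 36.2 TPM in CON and 153 to 278 TPM in KD, Camp making up most of it. Of 10 macrophage markers 2 were called higher, 7 stayed below 1 TPM in all 8 libraries, and Adgre1, C1qa and Ptprc were listed at 0; the summed level was 134 to 182 TPM in CON and 221 to 253 TPM in KD.

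The C/EBP pattern TTGCNNAA was present in 11 of the 15 acute phase genes that have a RefSeq promoter (73.3%) and in 10.0% of all 8956 promoters. Over all calls it was found in 18.0% of the 590 promoters of genes called higher and in 9.47% of the 285 of genes called lower. Such an excess was not particular to this pattern. The TATA box was in 14.1% of the promoters of genes called higher and in 8.62% of all. The AP-1 pattern TGANTCA was in 10.8% of those called higher, 10.9% of those called lower and 6.25% of all. Some patterns went the other way, such as the E2F pattern TTTNNCGC, with 5.59% of those called higher and 10.1% of all. Of the factors themselves, Cebpa went from 16.8 ± 1.72 to 28.5 ± 2.76 TPM (0.73 ± 0.17, adjusted p = 0.0159), a call that was lost without CON 2, CON 3, KD 1 or KD 4 and under median-of-ratios scaling or quantile normalization. The KD values of Cebpb lay within the range of CON (0.18 ± 0.25, adjusted p = 0.770). Cebpd had 45.0, 45.3, 61.7 and 159 TPM in CON 1 to 4 and 104 to 132 TPM in KD. CON 4 lay above every KD library and the gene was not called (0.80, adjusted p = 0.170, limma). The NF-kB pattern GGGANNTTC was in none of the 15 promoters and in 4.33% of all. The STAT pattern TTCNNNGAA was in 1 of the 15 and in 8.34% of all.

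Protease inhibitors and complement genes were called as well. Of 19 serpins 9 were called higher and none lower (median difference 0.44). Among these, Serpina3g, Serpina3h, Serpina3i, Serpina3m and Serpina3n are neighbours on chromosome 12 and encode closely related proteins, so their reads may have been shared. The most abundant, Serpina3n, had 5.51, 3.46, 8.21 and 11.6 TPM in CON 1 to 4 and 33.5, 33.9, 23.9 and 31.2 TPM in KD 1 to 4 (2.04 ± 0.35, adjusted p = 0.00289). Its KD libraries were all above CON. Of 14 complement genes 6 were called higher and 2 lower. C3, for the central component, had 152, 152, 169.5 and 90.8 TPM in CON 1 to 4 and 746, 662, 344 and 517 TPM in KD 1 to 4 (1.98 ± 0.31, adjusted p = 0.00147), and C1s1 and C1ra, the proteases of the first component, differed by 1.21 and 1.23.

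Cytokine genes were mixed. Of 42 tested interleukins and their receptors, 11 were called higher and 2 lower, with a median difference of 0.12. Il6, whose product drives the acute phase response, had 128, 112, 168 and 674 TPM in CON 1 to 4 and 1128, 895, 907 and 1146 TPM in KD 1 to 4; CON 4 was again the control nearest to KD, and the groups did not overlap (2.33 ± 0.47, adjusted p = 0.00703). Il1a and Il1rn, which encode an interleukin 1 and the antagonist of its receptor, both rose, by 2.38 ± 0.36, adjusted p = 0.00109 and 1.89 ± 0.21, adjusted p = 0.000140. Il11 and Lif, of the interleukin 6 family, rose by 1.79 and 1.43. Nos2, for inducible nitric oxide synthase, had 3.07 to 8.70 TPM in CON and 36.2 to 70.6 TPM in KD (3.03 ± 0.31, adjusted p = 5.93e-05). Il2rg, for the receptor chain shared by several interleukins, was one of the 2 that fell (-1.55 ± 0.20, adjusted p = 0.000347). Of 29 Toll-like and NOD-like receptors and NF-kB factors 7 were called higher and 2 lower; 3 or 4 were called higher without CON 1, CON 3, KD 1, KD 2 or KD 4. Of the 16 tested eicosanoid genes limma called none, and 3 had an unadjusted p below 0.05.

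**Figure D3:**
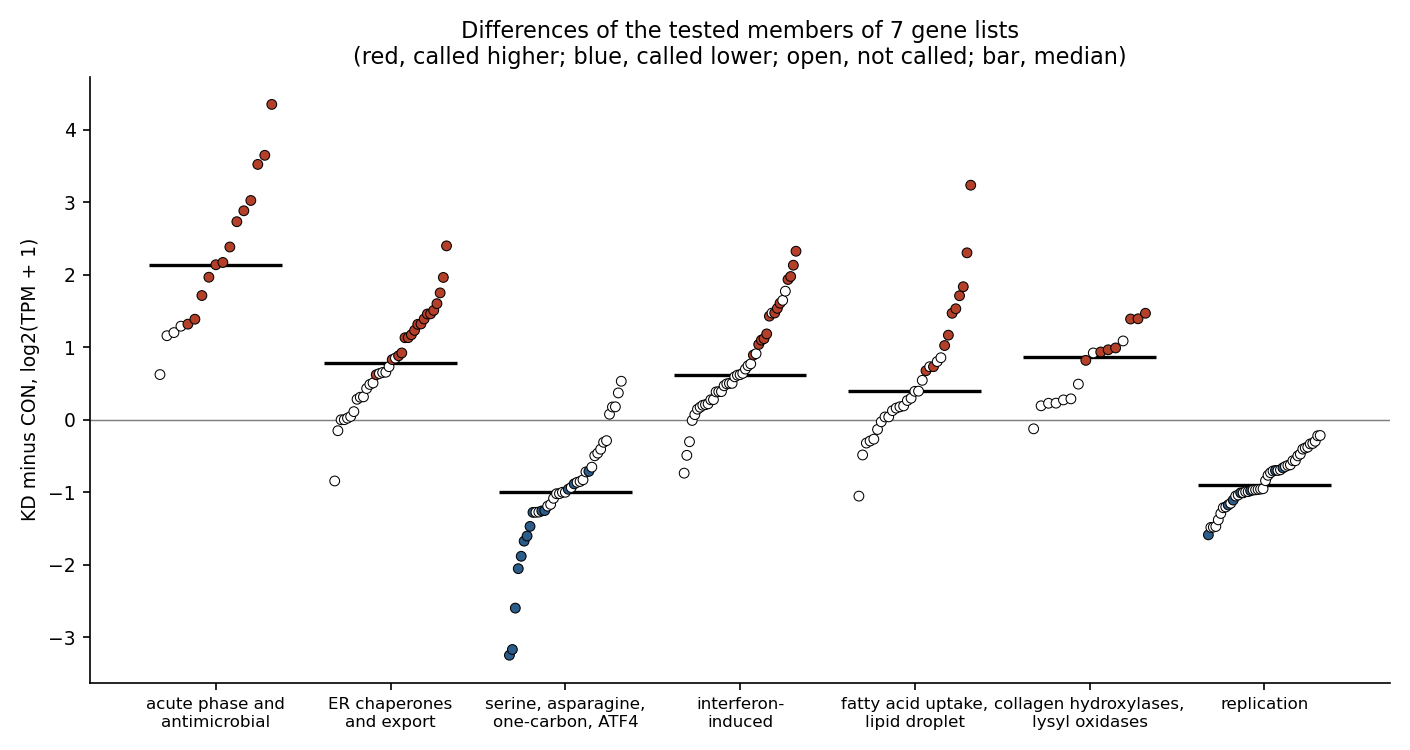
Each point is a tested member of 1 of 7 gene lists, placed by its difference between KD and CON (vertical axis, log2(TPM + 1)) and ordered by size within the list; red members were called higher, blue lower, open ones not called, and the bar is the list's median. Medians run from 2.14 in the acute phase list to -1.002 in the serine, asparagine and one-carbon list.

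Many ER chaperone genes were called higher in KD. Of 36 tested ER chaperone and export genes 18 were called higher and none lower, 21 had no overlap, and the median difference was 0.78. Leaving out any 1 library left 15 to 20 calls. Hspa5, for the chaperone BiP, which binds unfolded chains in the ER, had 1375, 1423, 1355 and 1745 TPM in CON 1 to 4 and 6621, 4722, 3421 and 5524 TPM in KD 1 to 4. Each KD value was above each CON value, with KD 3 the lowest of KD and CON 4 the highest of CON (1.75 ± 0.23, adjusted p = 0.000480). Hsp90b1, for its partner GRP94, had 2038, 1973, 1979 and 2121 TPM in CON 1 to 4 and 7453, 5626, 3626 and 6356 TPM in KD 1 to 4 (1.46 ± 0.23, adjusted p = 0.00170). Both separated the groups, as did Pdia4, one of the enzymes that form disulphide bonds, with 160.4, 153, 171 and 179.8 TPM in CON 1 to 4 and 889, 663, 398 and 754 TPM in KD 1 to 4 (1.96 ± 0.26, adjusted p = 0.000494). Other disulphide isomerases and their helpers were called as well. Pdia6, Pdia5, Pdia3 and P4hb differed by 1.39, 1.31, 0.92 and 0.83, the calcium-binding chaperone Calr by 1.17, the exchange factor Hyou1 by 1.6, and Sdf2l1 by 2.40. Creld2 differed by 1.46 ± 0.33, adjusted p = 0.0136 and lost its call without KD 1. Under median-of-ratios scaling the calls of Pdia3, P4hb, Calr, Creld2 and Xbp1 were lost. Syvn1, for the ubiquitin ligase that clears misfolded proteins, rose from 29.2 ± 4.87 to 64.7 ± 6.26 TPM; it overlaps Mrpl49 on the opposite strand, and the sources used here do not say whether counting used strand. Of the 3 stress sensors, Eif2ak3, for the kinase PERK, was called higher, with 4.63 to 10.8 TPM in CON and 15.4 to 27.4 TPM in KD (1.23 ± 0.31, adjusted p = 0.0227, a call lost without CON 2, KD 1, KD 2 or KD 4). Atf6 differed by -0.15 ± 0.47, adjusted p = 0.913 and Ern1 by -0.85 ± 0.97, adjusted p = 0.697, with neither called. Xbp1, for the factor whose RNA is spliced in this response, rose from 128 ± 1.91 to 197 ± 7.39 TPM (0.62 ± 0.13, adjusted p = 0.0100).

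The ER stress element was rare. It was present in 15 of the 8956 promoters (0.167%), in 9 of the 590 of genes called higher and in none of the 285 of genes called lower. In the ER list it was in 8 of 26 promoters and in 6 of 15 of called members, the 6 shown above; the pattern was added after the values had been seen. CCAAT alone was in 43.7% of all promoters. A further pattern, the unfolded protein response element TGACGTGG, was in 0 of the 26 promoters of the ER list and in 1.04% of all. It was in 4 of the 590 promoters of genes called higher.

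Serine, asparagine and one-carbon supply genes and other ATF4 targets were called in 1 direction. Of 39 tested members 14 were called lower and none higher, and the median difference was -1.002. Without CON 4 the count was 29; without any other single library it was 11 to 14. Phgdh, the first enzyme of serine synthesis, had 57.1, 59.5, 76.1 and 98.4 TPM in CON 1 to 4 and 19.7, 22.7, 18.7 and 25.7 TPM in KD 1 to 4, with CON 4 the highest control (-1.68 ± 0.20, adjusted p = 0.000213). Psph, the last enzyme of that pathway, fell from 183 ± 40.3 to 75.6 ± 13.5 TPM (-1.25 ± 0.21, adjusted p = 0.00198); it shares 452 bases of exon with Cct6a on the opposite strand. Shmt2, which moves the serine carbon into folate in mitochondria, had 698, 747, 719 and 370.2 TPM in CON 1 to 4 and 186, 268, 187 and 249 TPM in KD 1 to 4 (-1.47 ± 0.25, adjusted p = 0.00236), and Asns, for asparagine synthetase, had 511, 604, 591 and 333 TPM in CON 1 to 4 and 211, 283, 144.7 and 210.1 TPM in KD 1 to 4 (-1.26 ± 0.27, adjusted p = 0.0110). In both genes CON 4 was the lowest control and still above every KD library. Of 7 tested SLC7 amino acid transporters 3 were lower and 1 higher. Slc7a3, for a cationic amino acid transporter, had 10.7, 9.20, 11.1 and 7.002 TPM in CON 1 to 4 and 0.121, 0.0385, 0.0591 and 0.148 TPM in KD 1 to 4 (-3.25 ± 0.18, adjusted p = 4.56e-07), near 0 in KD. Slc7a11, for the cystine and glutamate exchanger, and Slc1a5, for a glutamine transporter, fell too and differed by -2.60 and -1.61. Slc7a2, a further cationic transporter, went the other way, with 1.74 to 4.07 TPM in CON and 17.6 to 31.7 TPM in KD (2.63 ± 0.30, adjusted p = 0.000158).

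Among the regulators, Atf4 had 1633, 1599, 1476 and 911 TPM in CON 1 to 4 and 743, 1094, 797 and 878 TPM in KD 1 to 4; CON 4 lay among the KD values and the gene was not called (-0.66 ± 0.22, adjusted p = 0.0816). The CON values of Ddit3, for the stress factor CHOP, lay within the range of KD (0.07 ± 0.20, adjusted p = 0.901). Atf5 (-0.89 ± 0.14, adjusted p = 0.00168), which overlaps Nup62 on the opposite strand, and the stress protein gene Nupr1 (-0.96 ± 0.18, adjusted p = 0.00474) were lower. Adm2, for the peptide intermedin, had 57.0, 49.4, 60.2 and 82.2 TPM in CON 1 to 4 and 3.03, 7.30, 2.54 and 3.07 TPM in KD 1 to 4 (-3.73 ± 0.33, adjusted p = 1.76e-05) and lies outside the list. The pattern TGATGNAA was in 2.79% of all promoters, in 2.88% of those of genes called higher and in 8.07% of those of genes called lower, and in 11 of 32 promoters of the list.

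Some antiviral genes and 4 of the 5 class II antigen presentation genes that could be tested were called higher. Of 43 tested interferon-induced genes 13 were called higher and none lower, with a median difference of 0.62; without CON 1 or without KD 4 the count was 8, and with the length correction it was 20. Oas1a, for a sensor of double-stranded RNA, had 1.00, 5.56, 1.89 and 1.89 TPM in CON 1 to 4 and 13.7, 15.01, 10.8 and 23.7 TPM in KD 1 to 4 (2.32 ± 0.42, adjusted p = 0.00380). CON 2 was the highest control and KD 4 the highest of all. Its neighbours Oas1b and Oas1g differed by 1.53 and 1.93, and all 3 are closely related genes that may share reads. Stat2, a factor of interferon signalling, had 17.7, 20.3, 21.04 and 15.3 TPM in CON 1 to 4 and 58.3, 61.8, 34.3 and 55.9 TPM in KD 1 to 4 (1.43 ± 0.21, adjusted p = 0.000951), and Trim30a rose, with 1.26 to 7.01 TPM in CON and 11 to 21.5 TPM in KD (1.97 ± 0.37, adjusted p = 0.00437). The interferon response core GAAANNGAA was in 18 of 34 promoters of the list and in 8.40% of all. It begins 20 bases before the start of Oas1a and 221 before that of Stat2, where it lies on the other strand, as the capitals show.
Oas1a (chr5:120907515-120907567, minus strand): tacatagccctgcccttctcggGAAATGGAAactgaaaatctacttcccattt
Stat2 (chr10:128270255-128270307, plus strand): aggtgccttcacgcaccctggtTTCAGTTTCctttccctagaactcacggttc
Slfn4, of the Schlafen family, which interferon also induces, had 1.12, 1.29, 0.728 and 0.391 TPM in CON 1 to 4 and 12.6, 11.8, 6.51 and 11.3 TPM in KD 1 to 4 (2.61 ± 0.28, adjusted p = 8.13e-05).

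Of 13 class II genes 5 were tested, and the rest had a mean below 1 TPM over the 12 libraries. Of the 5 tested, 4 were called higher, whichever single library was left out. H2-DMb1 had 0, 0.277, 0.516 and 0.371 TPM in CON 1 to 4 and 9.51, 10.2, 16.02 and 10.2 TPM in KD 1 to 4, and H2-DMb2 0.314, 0, 0.115 and 0.364 TPM in CON 1 to 4 and 10.8, 11.4, 15.9 and 16.1 TPM in KD 1 to 4. These 2 genes encode the exchange factor that loads peptides on class II molecules, are near-identical neighbours and may share reads. Both were below 1 TPM in every CON library, so the libraries outside CON brought them over the limit for testing. Cd74, for the invariant chain, rose from 38.3 ± 21.9 to 174 ± 53.8 TPM (2.25 ± 0.45, adjusted p = 0.00653). In the class I list 3 of 19 were higher and 2 lower. Tap2, for the peptide pump of that pathway, fell evenly, with 36.0, 34.3, 35.6 and 36.1 TPM in CON 1 to 4 and 12.4, 11.2, 9.93 and 10.3 TPM in KD 1 to 4 (-1.61 ± 0.16, adjusted p = 5.26e-05), while the class I-like gene H2-T10 rose, with 0.669 to 1.94 TPM in CON and 7.83 to 9.52 TPM in KD (2.27 ± 0.24, adjusted p = 8.49e-05).

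**Figure D4:**
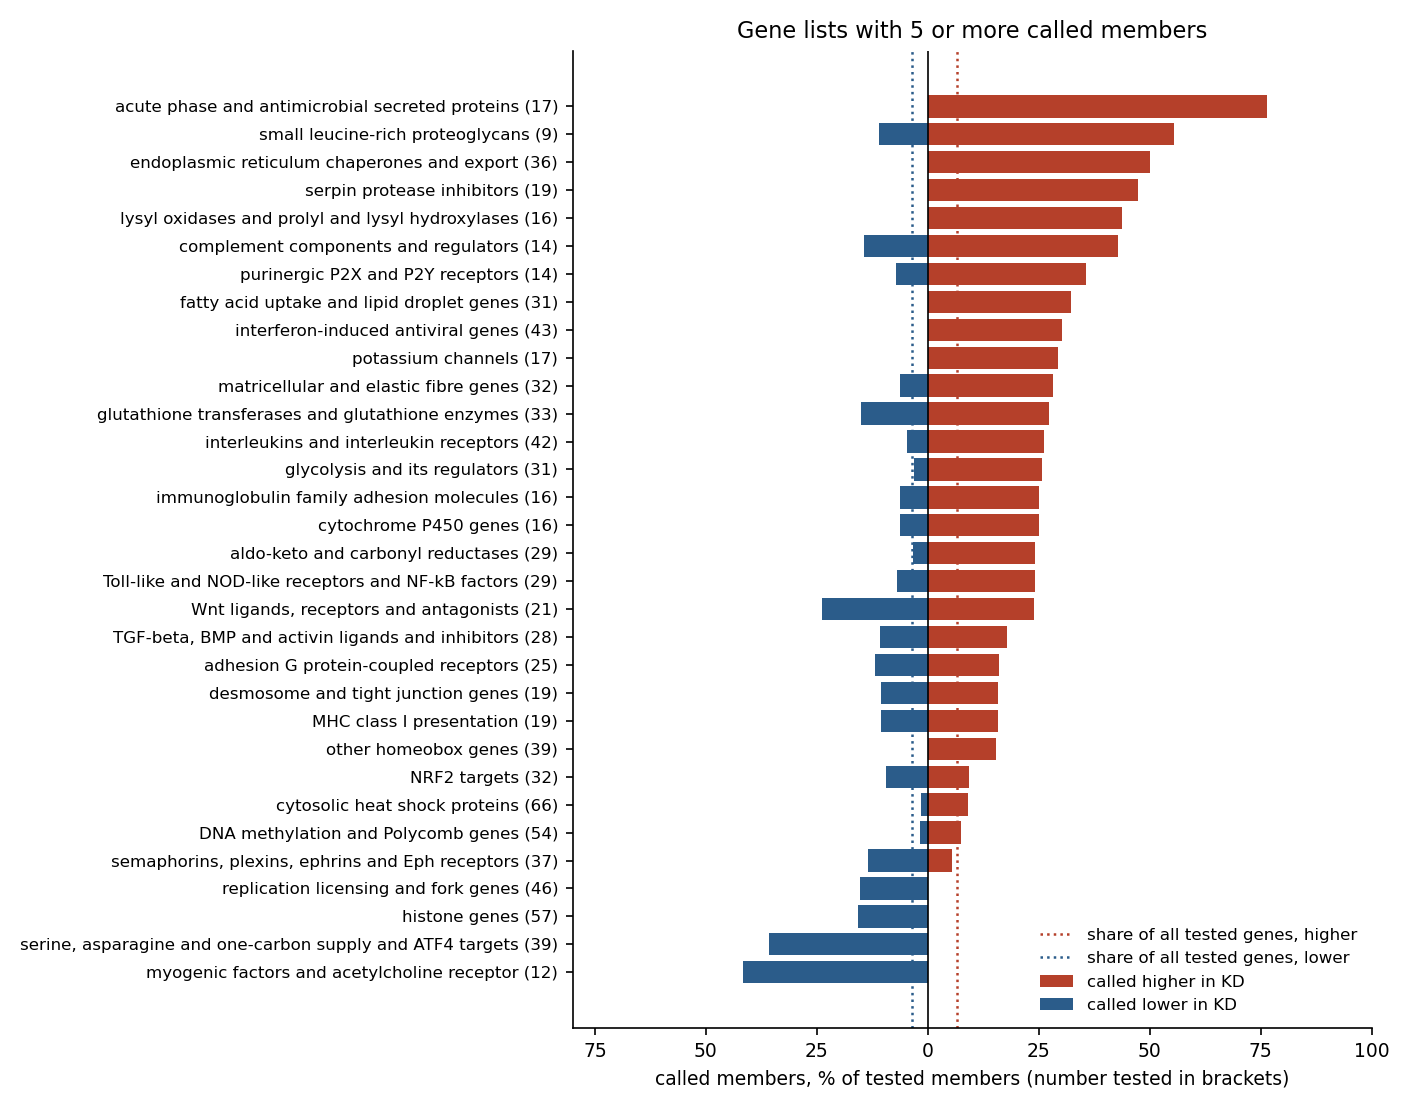
Bars give the percentage of each list's tested members that were called higher (red, to the right) or lower (blue, to the left) in KD. The 32 lists with at least 5 calls are shown, and the lists of cell type markers are left out. Dotted lines mark 6.6% and 3.61%, the shares of all tested genes. Among the lists shown, the acute phase list has the longest bar on the right and the myogenic list the longest on the left.

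The widest single difference was in growth factor binding. Igfbp5 (ENSMUSG00000026185.8, chr1:72857932-72874884, minus strand), whose product binds insulin-like growth factors in the matrix, had 565, 604, 624 and 158 TPM in CON 1 to 4 and 1.14, 1.15, 0.317 and 0.917 TPM in KD 1 to 4. CON 4 was far below the other controls and far above every KD library. The difference was -7.86 ± 0.44, adjusted p = 4.66e-07. Igfbp2 had 10.6, 11.1, 15.9 and 81.3 TPM in CON 1 to 4, was listed at 0 in KD 1 to 3 and had 0.189 TPM in KD 4. Igfbp7 and Stc1, for stanniocalcin 1, which controls the protease acting on these binding proteins, rose, although the Igfbp7 call was lost under median-of-ratios scaling. Stc1 had 247, 254, 301 and 289 TPM in CON 1 to 4 and 2433, 2363, 893 and 1597 TPM in KD 1 to 4 (2.63 ± 0.43, adjusted p = 0.00186). The list of 15 thus had 2 members higher and 2 lower.

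Ptn (ENSMUSG00000029838.11, chr6:36714929-36810220, minus strand), for the heparin-binding growth factor pleiotrophin, had 44.5, 45.5, 48.7 and 16.3 TPM in CON 1 to 4 and 623, 587, 449 and 473 TPM in KD 1 to 4. KD was above CON throughout and CON 4 was the lowest control (3.85 ± 0.48, adjusted p = 0.000284). The proliferin genes Prl2c2, Prl2c3 and Prl2c5, placental relatives of prolactin that occur as near-identical copies on chromosome 13, were 3 of 4 tested family members, and all 3 fell. Prl2c2 had 676, 619, 656 and 443 TPM in CON 1 to 4 and 18.4, 21.2, 6.20 and 17.7 TPM in KD 1 to 4 (-5.25 ± 0.55, adjusted p = 7.80e-05). Of 9 trophoblast markers the other 8 were below 1 TPM in all 8 libraries. The summed level of the trophoblast list, nearly all from this 1 gene, was 443 to 676 TPM in CON and 6.29 to 21.4 TPM in KD. H19, an imprinted RNA of fetal tissues, had 42.6 to 103 TPM in CON and 2.70 to 3.53 TPM in KD (-4.21 ± 0.27, adjusted p = 1.11e-06).

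Wnt pathway genes changed in both directions. Of 21 tested genes 5 were called higher and 5 lower. The ligands Wnt4 and Wnt7b fell, with 7.14 to 15.98 TPM in CON and 0.0333 to 0.303 TPM in KD for Wnt4 and 3.88 to 7.24 TPM in CON and 0.0762 to 0.127 TPM in KD for Wnt7b. The ligand Wnt5b rose (1.48 ± 0.19, adjusted p = 0.000373). The secreted antagonists Sfrp1 and Sfrp2 rose. Sfrp1 had 16.7, 17.5, 12.7 and 8.99 TPM in CON 1 to 4 and 147, 146, 96.1 and 115 TPM in KD 1 to 4 (3.10 ± 0.25, adjusted p = 9.42e-06), and Sfrp2 had 4.07 to 7.02 TPM in CON and 35.7 to 42.7 TPM in KD (2.58 ± 0.19, adjusted p = 4.51e-06). A further antagonist gene, Dkk2, fell, with 2.88 to 5.12 TPM in CON and 0 to 0.0702 TPM in KD (-2.12 ± 0.16, adjusted p = 5.31e-06). Fst, for follistatin, which traps activin, rose from 8.96 ± 0.884 to 46.4 ± 3.74 TPM (2.25 ± 0.24, adjusted p = 7.80e-05). Hes1, a target of Notch, and Spry1, a brake on receptor kinases, fell and differed by -1.95 and -2.80.

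Detoxification genes were called in both directions. Aldh3a1 (ENSMUSG00000019102.10, chr11:61207537-61218421, plus strand), for an aldehyde dehydrogenase, had 287, 308, 320.0 and 269 TPM in CON 1 to 4 and 7.25, 5.79, 9.52 and 6.11 TPM in KD 1 to 4 (-5.20 ± 0.19, adjusted p = 1.22e-08). All libraries of each group lay close together, CON 4 included. Of 13 tested aldehyde dehydrogenases 2 were higher and this 1 lower. Cyp4f40, for a cytochrome P450, had 28.6, 29.2, 30.6 and 18.6 TPM in CON and at most 0.0761 TPM in KD. Of 33 glutathione genes 9 were called higher and 5 lower. Gsta1, Gsta2 and Gsta3, of the alpha class, fell; Gsta3 had 30.4, 30.8, 34.3 and 38.2 TPM in CON 1 to 4 and 4.09, 2.18, 1.70 and 2.98 TPM in KD 1 to 4 (-3.24 ± 0.21, adjusted p = 1.42e-06). Gstm7, of the mu class, rose, with 1.21 to 3.27 TPM in CON and 9.46 to 21.99 TPM in KD (2.52 ± 0.41, adjusted p = 0.00181), and its neighbours Gstm2, Gstm5 and Gstm6 were called higher with it, although the Gstm2 call was lost without any 1 of 6 libraries and the Gstm6 call without any 1 of 4. All 3 calls were lost under median-of-ratios scaling. Members of each class resemble each other closely. The count of higher glutathione genes was 4 or 5 without CON 1, CON 2, CON 3, KD 2 or KD 4, and 2 under median-of-ratios scaling.

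Fat handling genes were called in 1 direction. Of 31 tested fatty acid uptake and lipid droplet genes 10 were called higher and none lower (median difference 0.39; 7 to 11 without 1 library), and 7 had a difference below 0. Angptl4, for an inhibitor of the lipase below, was among these 7 and just missed the threshold (-1.06 ± 0.31, adjusted p = 0.0522). Lpl, for the lipase that frees fatty acids from lipoproteins, had 335, 384, 369 and 510.4 TPM in CON 1 to 4 and 2364, 1998, 1591 and 1914 TPM in KD 1 to 4 (2.30 ± 0.25, adjusted p = 9.60e-05). Fabp4, for a fatty acid carrier, had 18.0, 22.7, 20.7 and 55.9 TPM in CON 1 to 4 and 318, 252, 182 and 294 TPM in KD 1 to 4 (3.23 ± 0.44, adjusted p = 0.000568). Plin4, for a droplet coat protein, and Dgat2, for the last enzyme of triglyceride synthesis, rose by 1.83 and 1.53. Of 8 fat cell markers 5 were tested and 4 called higher, and their summed level was 382 to 594 TPM in CON and 1828 to 2735 TPM in KD; Cidec and Lep were listed at 0 and Adipoq was near 0. The part of fat cells in the result was not tested. Of 31 glycolysis genes 8 were higher and 1 lower, with 13 higher without CON 4 and 14 with the length correction. Ldhb, for a lactate dehydrogenase chain, had 1.22 to 2.70 TPM in CON and 10.97 to 18.3 TPM in KD (2.39 ± 0.23, adjusted p = 4.12e-05). The lactate exporter gene Slc16a3 moved the other way, with 53.3 to 99.8 TPM in CON and 12.9 to 16.6 TPM in KD (-2.06 ± 0.21, adjusted p = 5.60e-05).

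Several genes that modify collagen were called higher. Of 16 lysyl oxidases and collagen hydroxylases 7 were called higher and none lower (median difference 0.87; 6 to 8 without 1 library). P4ha2, for a prolyl hydroxylase subunit, had 92.0, 84.8, 95.6 and 139 TPM in CON 1 to 4 and 279, 262, 331 and 258 TPM in KD 1 to 4 (1.47 ± 0.17, adjusted p = 0.000158), and Loxl1, for an enzyme that cross-links elastin and collagen, rose from 44.6 ± 5.63 to 118 ± 8.04 TPM (1.39 ± 0.20, adjusted p = 0.000770). Of 21 collagen genes 19 had a difference above 0 (median 0.47) and 5 were higher without overlap, but 2 were called. With the length correction 8 were called higher and none lower, and without CON 4, RE 1 and RE 3 the counts were 5 and 1. Col11a1 was higher, with 0.544 to 1.46 TPM in CON and 14.3 to 29.9 TPM in KD (3.35 ± 0.38, adjusted p = 0.000139), and Col1a1 lower (-0.75 ± 0.19, adjusted p = 0.0244, a call lost without CON 1, CON 2, CON 3 or KD 4 and with the length correction). Of 9 small leucine-rich proteoglycans, which coat collagen fibrils, 5 were higher and 1 lower, with 2 or 3 higher without CON 2, KD 1 or KD 2. Ogn rose by 1.32 and Aspn by 1.71. Dcn, for decorin, fell. It had 23.6, 25.2, 36.8 and 81.4 TPM in CON 1 to 4 and 4.10, 4.78, 6.18 and 5.13 TPM in KD 1 to 4, with CON 4 the highest control (-2.65 ± 0.33, adjusted p = 0.000304). Dcn and Col1a1 are also fibroblast markers. Of 12 such markers 9 were tested and 4 called lower, and the summed level was 2792 to 4436 TPM in CON and 3025 to 4297 TPM in KD, with overlap; the part of such cells in the result was not tested. Of 11 matrix metalloproteinases and their inhibitors 1 fell and 1 rose. Mmp2, for a gelatinase, had 20.4, 20.3, 18.9 and 24.5 TPM in CON 1 to 4 and 1.83, 1.65, 1.15 and 1.14 TPM in KD 1 to 4 (-3.18 ± 0.19, adjusted p = 7.78e-07). Mmp3, for stromelysin, had 5.04, 2.72, 5.24 and 5.53 TPM in CON 1 to 4 and 17.9, 23.3, 41.6 and 17.7 TPM in KD 1 to 4 (2.16 ± 0.29, adjusted p = 0.000496). Spp1, for osteopontin, had 4249 to 4929 TPM in CON and 7475 to 8989 TPM in KD (0.84 ± 0.14, adjusted p = 0.00217, a call lost under quantile normalization).

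Several axon guidance genes were called lower. Of 37 semaphorins, plexins, ephrins and receptors 5 were lower and 2 higher, the latter near the share of all tested genes; with the length correction 6 were lower and 8 higher. Sema3a, for a secreted repellent, had 15, 13.7, 11.2 and 3.65 TPM in CON 1 to 4 and 0.567, 0.847, 0.326 and 0.720 TPM in KD 1 to 4 (-2.75 ± 0.35, adjusted p = 0.000347), and Efnb2, for an ephrin, had 13.7, 14.8, 13.96 and 1.74 TPM in CON 1 to 4 and 1.58, 0.683, 0.847 and 0.706 TPM in KD 1 to 4 (-2.36 ± 0.49, adjusted p = 0.00816), where CON 4 lay just above KD 1. Sema3f, a second repellent, went up, with 1.51 to 2.50 TPM in CON and 8.87 to 12.1 TPM in KD (1.94 ± 0.19, adjusted p = 5.26e-05). L1cam, for a neural adhesion molecule, rose, with 1.71 to 3.15 TPM in CON and 14.9 to 29.96 TPM in KD (2.79 ± 0.31, adjusted p = 0.000135), and Cldn15, for a claudin, had 5.69 to 7.94 TPM in CON and 20.4 to 75.2 TPM in KD (2.73 ± 0.47, adjusted p = 0.00279). Krt19, for a keratin of simple epithelia, fell, with 19.5 to 37.8 TPM in CON and 0.648 to 2.17 TPM in KD (-3.59 ± 0.28, adjusted p = 5.95e-06). Of 12 epithelial markers 10 stayed below 1 TPM in all 8 libraries.

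Membrane transport and receptor genes followed. Of 6 tested SLC6 transporters 3 were higher. Slc6a12, for the betaine and GABA transporter, had 1.94, 1.92, 2.201 and 2.03 TPM in CON 1 to 4 and 70.0, 51.9, 14.3 and 47.0 TPM in KD 1 to 4. The controls lay close together and KD 3 was the lowest of KD (3.76 ± 0.56, adjusted p = 0.000954). Slc6a17, for an amino acid transporter of synaptic vesicles, rose by 2.87. Of 17 potassium channel genes 5 were higher and none lower. Kcnj16, for an inward rectifier, had 28.2 to 39.9 TPM in CON and 78.1 to 152 TPM in KD (1.66 ± 0.27, adjusted p = 0.00181), and Kcnk10, for a leak channel, 0.166 to 0.677 TPM in CON and 4.29 to 8.12 TPM in KD (2.40 ± 0.22, adjusted p = 2.08e-05). Of 14 purinergic receptors and enzymes of extracellular nucleotides 5 were higher and 1 lower, with 3 higher without CON 3. The lower one, P2rx3, for an ATP-gated channel of sensory neurons, had 50.4, 53.1, 51.4 and 52.2 TPM in CON 1 to 4 and 1.72, 2.45, 0.965 and 1.58 TPM in KD 1 to 4 (-4.33 ± 0.25, adjusted p = 6.83e-07). Its exons overlap 12 bases of the abundant gene Ssrp1 on the opposite strand.

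Several skeletal muscle genes that CON cells held were lower in KD. Of 12 myogenic factors and acetylcholine receptor genes 5 were called lower and none higher; 3 were called without CON 1, CON 2, CON 3, KD 1 or KD 2. Myod1, the master regulator of skeletal muscle, had 8.18, 5.68, 7.27 and 4.27 TPM in CON, was listed at 0 in KD 1 to 3 and had 0.125 TPM in KD 4. The receptor subunit genes Chrnd and Chrna1 fell too; Chrnd had 5.30 to 16.8 TPM in CON and 0.0286 to 0.134 TPM in KD and Chrna1 8.27 to 14.1 TPM in CON and 3.56 to 4.16 TPM in KD (-1.46 ± 0.20, adjusted p = 0.000588). Cacng1, for a calcium channel subunit of skeletal muscle, fell, with 10.9 to 28.2 TPM in CON and 0 to 1.15 TPM in KD (-3.65 ± 0.32, adjusted p = 1.78e-05). Of 16 skeletal muscle markers 7 were tested, 4 called lower and 1, Actn3, called higher (0.81 ± 0.22, adjusted p = 0.0344, a call lost without any 1 of 6 libraries), and the summed level was 32.3 to 47.2 TPM in CON and 24.7 to 29.8 TPM in KD; the part of such cells in the result was not tested. Of other regulators, Tbx18, a T-box factor of heart and ureter mesenchyme, rose (13.1, 12.3, 10.8 and 5.95 TPM in CON 1 to 4 and 60.5, 58.8, 30.04 and 46.7 TPM in KD 1 to 4; 2.12 ± 0.34, adjusted p = 0.00173), as did Vdr, for the vitamin D receptor (1.58 ± 0.17, adjusted p = 8.32e-05).

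Cell division genes, the process in which WDR62 is known to act, gave counts that depended on CON 4. Of 28 spindle pole partners and JNK pathway genes Wdr62 was the single call. Aurka, for the kinase that brings WDR62 to the spindle, had 119, 122, 112 and 82.4 TPM in CON 1 to 4 and 75.8, 67.5, 81.5 and 84.2 TPM in KD 1 to 4, with CON 4 among the KD values (-0.48 ± 0.20, adjusted p = 0.160). Tpx2, its activator, overlapped in the same way (-0.68 ± 0.31, adjusted p = 0.202). All 46 tested replication genes had a negative difference (median -0.90) and 14 did not overlap, and 7 were called lower. The count was 29 without CON 4, 9 without KD 3, and 0 or 1 without any other single library. Rfc3, a clamp loader subunit, had 147, 129, 124 and 85.2 TPM in CON 1 to 4 and 34.8, 31.0, 52.3 and 40.4 TPM in KD 1 to 4 (-1.59 ± 0.38, adjusted p = 0.0184) and lost its call without CON 1, CON 2, CON 3, KD 1 or KD 2. Of 57 histone genes 9 were lower and none higher, with 19 without CON 4, 13 without KD 3 and 2 to 5 without any other library.

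Some called genes were neighbours. There were 15 runs of 3 or more adjacent tested genes called the same way, 13 higher and 2 lower, which held 60 of the 1202 called genes. The longest held 8 genes: Ifi27, Ifi27l2a, Serpina12 and the 5 Serpina3 genes at chr12:103434211-104414329, and Clec4e to C1rb at chr6:123281789-124581171, which includes the complement proteases. The calls of Ifi27l2a and Serpina12 were lost without 2 and 3 of the single libraries, and that of Ifi27 under median-of-ratios scaling. The lower runs were the Prl2c genes with Gpr137b at chr13:12790816-13394014 and the Gsta genes at chr9:78230656-78355788. Another run, Tmem176a, Tmem176b and Gpnmb on chromosome 6, rose together; Tmem176b had 223, 229.5, 277 and 449 TPM in CON 1 to 4 and 859, 866, 803 and 968 TPM in KD 1 to 4 (1.62 ± 0.23, adjusted p = 0.000769).

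The calls were not even over the chromosomes. Chromosome 6 had 81 of 573 tested genes called higher and 6 lower, 14.1% and 1.05%, with a median difference of 0.18. Chromosome 19 had 42 of 423 higher and 2 lower, with a median of 0.18 as well. Chromosomes 13, 10 and 16 had medians of 0.16, 0.11 and 0.13, and chromosome 15 had the lowest, -0.13, with 27 higher and 36 lower. Without CON 4, chromosomes 18, 1 and 12 lay lower than chromosome 15, at -0.291, -0.280 and -0.259 against -0.252. On chromosome 13 the windows of 20 Mb lay between 0.17 and 0.27, except that from 20 to 40 Mb, which was at -0.16. Relative to the median of all tested genes, chromosome 6 stood at 0.20 with the length correction and at 0.21 without CON 4, and chromosome 19 at 0.19 and 0.21.

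**Figure D5:**
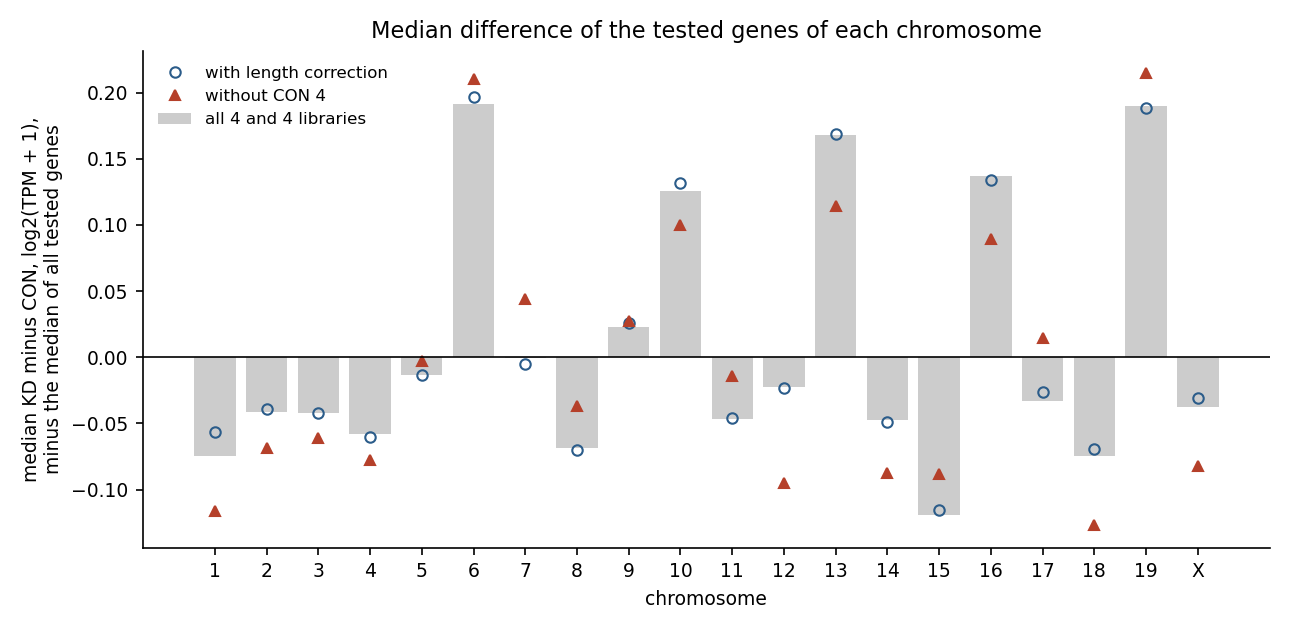
Grey bars give, for each chromosome, the median difference of its tested genes between KD and CON minus the median of all tested genes (log2(TPM + 1)); open circles show it with the length correction and triangles without CON 4. Chromosomes 6, 10, 13, 16 and 19 lie at 0.089 or above under all 3, and chromosome 15 at -0.088 or below. Without CON 4, chromosomes 18, 1 and 12 lie lower than chromosome 15.

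Further groups had shares of calls above those of all tested genes. Of 32 matricellular and elastic fibre genes 9 were higher and 2 lower, of 29 aldo-keto and carbonyl reductases 7 and 1, and of 16 cytochrome P450 genes 4 and 1. Of 39 homeobox genes outside the Hox clusters 6 were higher and none lower, with 3 to 8 when 1 library was left out. Of 13 imprinted genes 4 were lower and none higher, with 2 to 4 lower when 1 library was left out. Of 24 cholesterol synthesis genes 23 had a difference above 0 (median 0.58) but 3 were called higher; the count was 11 with the length correction, 9 without CON 4 and 0 to 2 without any other single library. Other groups had few calls or none. Over all tested genes 6.6% were called higher and 3.61% lower. Of 22 tested myosin genes limma called none, with 2 at an unadjusted p below 0.05. Of 76 cytosolic ribosomal protein genes 2 were called lower and 0 higher, and of 81 respiratory chain subunits 3 lower and 0 higher. With the length correction 15 of the respiratory genes were called lower and 2 higher. In the ribosomal list 68 differences were below 0 (median -0.28), and 11 genes were lower without overlap and 0 higher. In the respiratory list 66 were below 0 (median -0.20), and 11 were lower without overlap and 2 higher. Over all tested genes 7.02% were lower without overlap and 11.9% higher. Of 35 cyclins, CDKs and inhibitors 2 were called lower and of 29 p53 targets 2 were called higher. Of the 97 lists, 94 had at least 1 called member.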

How the data were processed

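RNA-seq of mouse HL-1 cells was deposited as 1 table of TPM per gene symbol, made by the authors; each column sums to 1000000, so depth is not recorded. Per the submitters' processing notes, Trim Galore 0.6.6, TopHat2 2.1.1, Cufflinks 2.2.1 and build mm10 were used; how TPM was derived and whether reads were assigned by strand is not stated in the sources used here. The columns named WT were read as CON, whose genotype label is WT, and no column was left unmapped.

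From these values, log2(TPM + 1) of the 11774 genes with a mean of at least 1 TPM over 12 libraries was fitted with limma 3.58.1 (R 4.3.3): a mean per group, a mean-variance trend, the contrast KD minus CON, two-sided, Benjamini-Hochberg adjustment and a threshold of 0.05. Simulated data with independent noise tested the procedure, with 100 genes changed by a log2 of 1 and 100 by 2. It called 49 and 78 of them, all in the right direction, and made 12 false calls. No simulated library was set apart as CON 4 was, so the simulation cannot show how such a library affects the calls. The length correction subtracts from each library a loess trend on transcript length (span 0.5). Gene positions and lengths come from GENCODE on GRCm38, promoters from RefSeq on GRCm38.p6; motifs were counted over 8956 tested genes with a promoter.

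The members, the 97 gene lists and the tests were chosen with earlier results of these data known. Named genes are, at 5 TPM or more in 1 group, the 20 largest rises and falls and the 10 largest by TPM among called genes without overlap, genes on in 1 group only, up to 6 called members of each list, marker genes and runs of 3 or more called neighbours. Of 185 named genes 47 fall outside this rule and were chosen after their values were seen. The same holds for the ER stress element and for Cebpd, which is in none of the counts of named genes. Alternatives covered the pseudocount, filters, scaling, length, the replicate number, robust moderation, the call rule and left-out libraries. Mitochondrially encoded genes were not analysed here. Some genes that the rule names are not reported here.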

Additional observations from a re-analysis of the deposited data

Results flagged for a closer look

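Among 342 checks of the 4 CON or 4 KD values of a named gene, 38 found 1 library far from the other 3 of its group; chance gives about 1 in 20. CON 4 was that library in 26 of them and no other control library was.

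CON 4 stood above the other controls in 14 genes. These were Lcn2 at 464 TPM, Slpi at 3751, Creld2 at 387, Calr at 2289.6, S100a10 at 3619, Sprr2h at 21.6, Igfbp2 at 81.3, Hp at 273, Il6 at 674, Pdia3 at 1173, Sdf2l1 at 195, Gstm2 at 72.7, Fabp4 at 55.9 and Serpina12 at 1.76 TPM. In defence genes (Lcn2, Slpi, Hp, Il6) and ER genes (Creld2, Calr, Pdia3, Sdf2l1) of this set CON 4 lay towards KD. In S100a10, Sprr2h and Igfbp2 it lay away from KD.

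CON 4 stood below the other controls in 12 genes. These were Vldlr at 5.23 TPM, Slc7a5 at 53.1, Igfbp5 at 158, Ptn at 16.3, Cyp4f40 at 18.6, C1s1 at 272, Il1rn at 109, Shmt2 at 370.2, Slc1a5 at 35.6, Efnb2 at 1.74, Atp2a2 at 67.02 and Ssrp1 at 248 TPM. For Ptn, C1s1, Il1rn and Atp2a2 this was away from KD, and for the others it was towards KD.

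In KD, 4 of the 12 flagged values were the single detected one of 4: Myod1 at 0.125 TPM and Cldn34b1 at 0.124 and Igfbp2 at 0.189 TPM in KD 4, and Foxa2 at 0.0673 TPM in KD 1. KD 4 was also highest in Ifi27l2a at 832 TPM and lowest in Col1a1 at 41.8 TPM. KD 2 was highest in Scara5 at 0.0218, Serpina3h at 8.86 and Adm2 at 7.30 TPM. KD 3 was highest in H2-DMb1 at 16.02 TPM and lowest in C1rb at 50.9 TPM, and KD 1 was lowest in Clec4e at 2.85 TPM.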

How the results depend on the processing

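Against 777 genes called higher and 425 lower, with 1404 and 826 that did not overlap, counts moved most with CON 4 and with transcript length; the cause was not tested. Lower calls numbered 684 with no filter and 273 with a filter of 5 TPM, where the number of genes tested differs, 690 with median-of-ratios scaling and 837 with quantile normalization. The length correction gave 1439 higher and 1180 lower calls and 1543 lower genes without overlap. With each CON or KD library left out in turn, higher calls ranged from 503 to 1116, lower calls from 241 to 1296, and genes without overlap from 1454 to 2069 higher and from 860 to 3679 lower. Without CON 4, RE 1 and RE 3 the calls were 1676 and 2960, with 3679 lower genes without overlap. Without CON 4 and with the length correction they were 2129 and 1857, with 3114 and 3019 without overlap. An added limit of 1 on the log2 difference left 450 and 243. A pseudocount of 0.1, the KD and CON libraries alone and robust moderation kept both counts within 1.5 times.

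The replicate number as a block gave 549 higher and 275 lower calls, and with the length correction 803 lower calls and 1543 lower genes without overlap. Same-numbered CON and KD libraries did not deviate together throughout: the correlation of their deviations was 0.48, 0.58, -0.52 and 0.44 for numbers 1 to 4, so the numbers were not taken to pair the libraries. Of 155 named genes that were called, 130 were called under every alternative other than the added limit and the filter of 5 TPM, and none reversed its direction. Median-of-ratios scaling called 23 of the ATF4 list lower and 9 potassium channel genes higher. Unknown depth limits what can be said of genes below 1 TPM.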
